A study of Mus musculus with 20 samples.

Results

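The set described here holds 35 nuclear receptor genes of the mouse, from the thyroid hormone, retinoid, vitamin D, steroid, bile acid, oxysterol, xenobiotic and orphan branches of the family. Members were found by an exact match of the gene name in the scanner files to a written list of receptors, with every probe kept. All 35 genes were found, among 27962 gene names, on 63 of the 41174 probes of the array (0.153%). Rora, the REV-ERB receptors and the PPARs are not members, whereas Rorb, the ROR form of the nervous system, is. The match itself used no measured level, but the list was chosen with earlier results of these data known. The male C57BL/6 mice were 5 months old and had been fed 35% fat over 6 weeks, and their liver and white adipose tissue (WAT) were profiled. Wild-type (WT) mice were compared with staggerer mice (RORasg/sg, here sg/sg), which carry a natural deletion in both copies of Rora in every tissue, so a difference in 1 tissue need not arise from loss of the receptor in that tissue. There were 5 arrays in each of the 4 groups, and all 4 groups ate the fat-rich diet, so no group shows the receptors on ordinary chow. The fat depot is not given.

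Nuclear receptors are transcription factors with a zinc finger domain that binds DNA and a pocket that, in many of them, binds a small lipid such as a steroid, thyroid hormone, a retinoid, a bile acid or an oxysterol. Ligand exchanges corepressors for coactivators on the bound receptor, and many members act as pairs with an RXR. In liver the family sets bile acid, cholesterol, drug and glucose metabolism, and in adipose tissue it takes part in fat cell formation, lipid storage and the answer to glucocorticoids. RORα binds as a single molecule to the half-site AGGTCA preceded by an A and T rich stretch.

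Levels are log2 of the processed intensity with the array's own 75th percentile subtracted, so 0 is the level that 75% of spots do not exceed. Values of 5 arrays are listed for replicates 1 to 5. Different probes are not set against each other on this scale. That percentile was 648 to 1090 intensity units on liver arrays and 1352 to 2598 on WAT arrays. On these arrays 57.1% to 63.0% and 72.5% to 81.5% of spots were well above background. All 3 probes of Rora were lower in sg/sg mice without overlap, by -2.81 to -2.88 in liver and -2.72 to -2.75 in WAT on the log2 scale. The position of these probes relative to the deletion is not given in the sources used here. Hepatocyte markers summed to 3000 to 4950 times the 75th percentile on liver arrays and to 50.8 to 113 on WAT arrays, and adipocyte markers to 686 to 1550 on WAT arrays and 19.3 to 67.3 on liver arrays. In liver, slide 1 held 4 WT arrays, slide 2 held 1 WT and 3 sg/sg arrays and slide 3 held 2 sg/sg arrays, so genotype and slide are largely confounded there. Each of the 3 WAT slides held both genotypes. Among the sg/sg WAT arrays, replicate 4 had the lowest 75th percentile of its tissue (1352) and stood apart from its group on 8 receptor probes. The WAT counts are therefore given with and without it. It was singled out partly by the values of these probes, so fits without it are a description and no support for a change.

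Receptor probes passed the test in liver at a share near that of all probes, and most of those that passed in WAT were higher in sg/sg mice. In sg/sg liver, 8 of 47 tested receptor probes passed an adjusted p of 0.05, 6 higher and 2 lower (17.0%), against 14.6% of all 24674 probes tested. In sg/sg WAT, 18 of 52 tested probes of 15 genes passed, 15 higher and 3 lower (34.6%), against 21.9% of all 32311 probes tested. Changes were above 0 on 26 of 47 probes in liver, with a median of 0.05 against 0.04 over all probes, and on 44 of 52 probes in WAT, with a median of 0.36 against 0.08. The tested probes were of 30 genes in liver and 31 in WAT, and probes of the same gene are not independent. The share of all probes above 0 was not counted. Only 2 probes passed in both tissues, those of Esr1 and Esrrg, and each went opposite ways in liver and WAT. In bulk tissue, fewer cells of a type and less RNA per cell cannot be told apart.

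**Figure D1:**
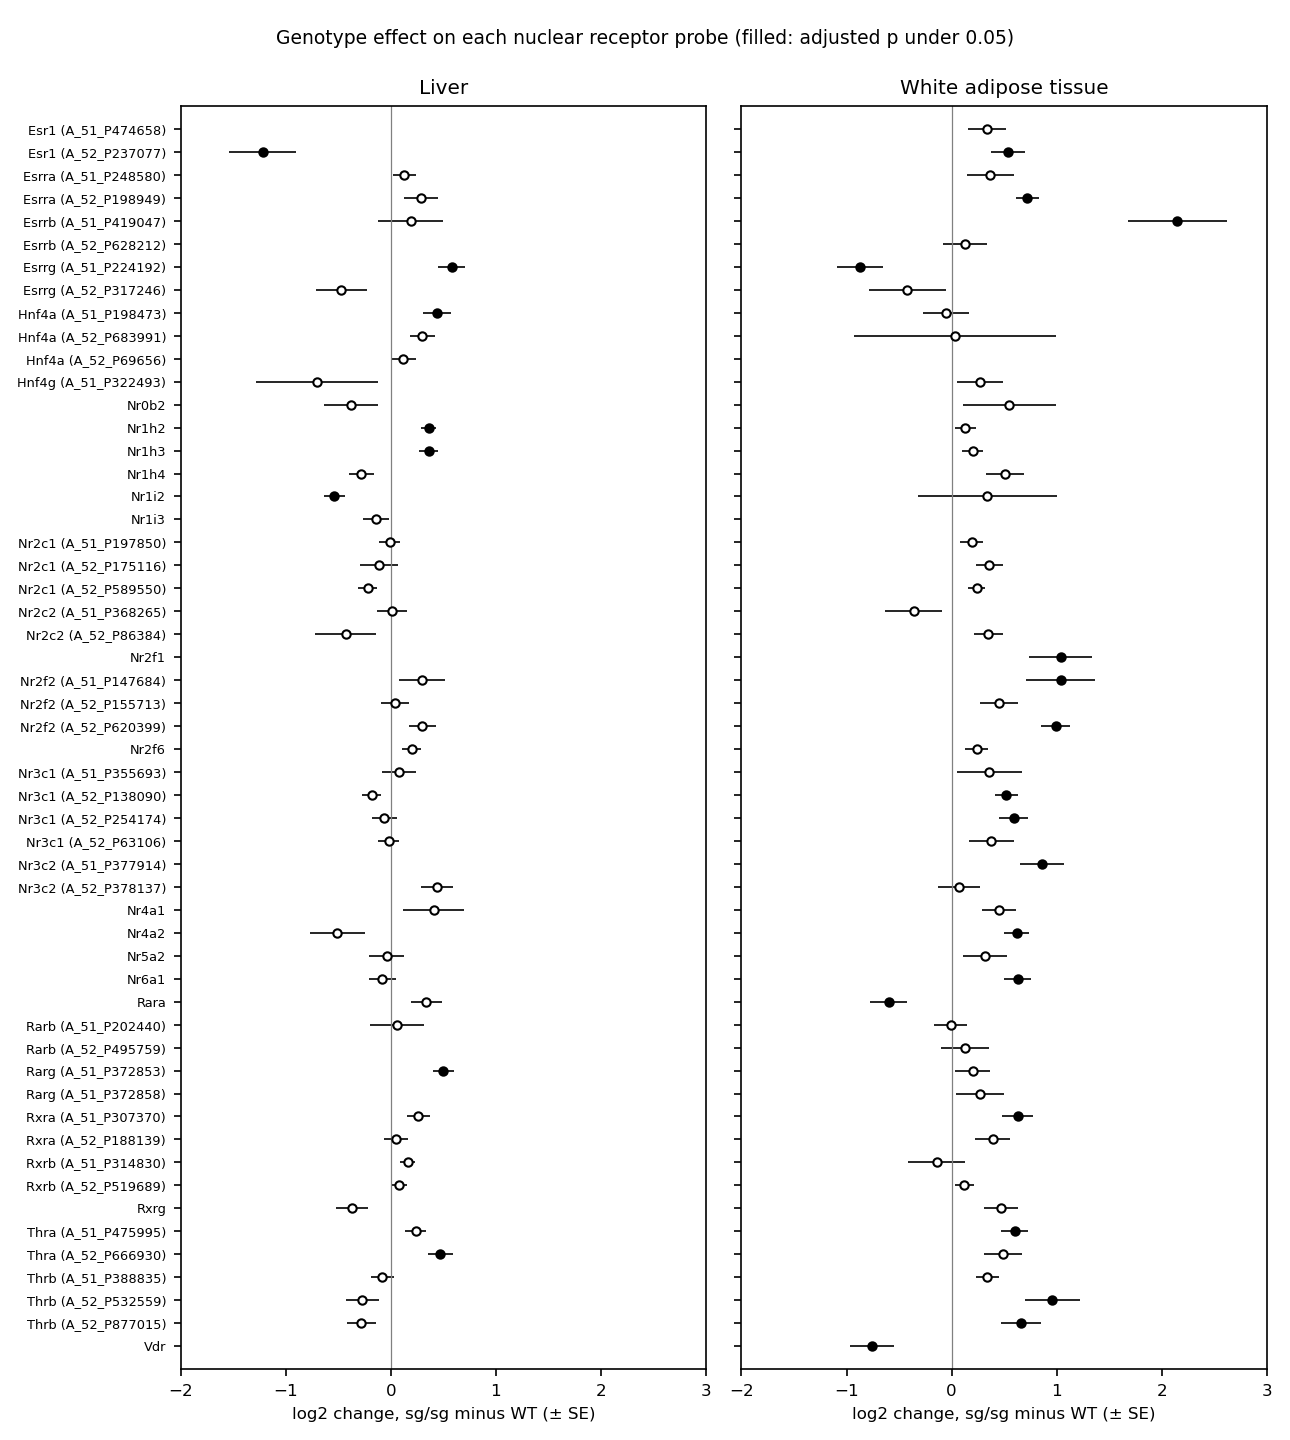
Log2 change of sg/sg against WT (x axis, with its standard error) for each receptor probe tested in at least 1 tissue, in liver (left) and WAT (right), n = 5 arrays per genotype. Filled points have a limma adjusted p under 0.05. Liver points scatter about 0 with 26 of 47 above it, and WAT points lie to the right, with 44 of 52 above 0.

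In sg/sg liver, the receptors that changed were 2 receptors that fell, the xenobiotic sensor Nr1i2 and the oestrogen receptor Esr1, and 6 that rose by 1.28 to 1.5-fold, among them both oxysterol receptors. Of the 47 tested probes, 6 were higher, against 8.10% of all probes, and 2 lower, against 6.49%. All 8 of these calls rest on arrays split by slide. When slide entered limma as a fixed block, 0 were called of the 47 probes (4 at an unadjusted p under 0.05). Over all 24671 probes only 3 were called then, so the loss is not particular to the receptors. Slide 2 by itself holds 3 sg/sg arrays and 1 WT array, so only the size of a change is read there. All 8 changes kept their sign within slide 2, and that value is given beside each. On all of them but Esr1 the genotypes did not overlap, so that sign was fixed beforehand and is no support. Probes that did not pass lay between -0.70 (Hnf4g) and 0.44 (Nr3c2). Genotypes did not overlap on 7 of the 47 receptor probes, against 12.2% of all probes.

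Nr1i2, the pregnane X receptor PXR, which senses drugs and bile acids and induces their breakdown, was measured at chr16:37955460-37955519 of build mm7. Its level was 3.75, 3.64, 4.04, 3.69 and 4.0 on the WT liver arrays and 3.16, 3.29, 3.34, 3.42 and 3.21 on the sg/sg arrays. Every sg/sg array was below every WT array. The change was -0.54 (SE 0.10, 1.45-fold, limma adjusted p = 0.0119), and -0.73 within slide 2. The call was kept on leaving out each of the 10 arrays in turn. Nr1i3, the constitutive androstane receptor CAR, which shares many target genes with PXR, was at -0.14 (SE 0.12, limma adjusted p = 0.472) and did not pass.

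Both oxysterol receptors rose. Nr1h3, or LXRα, which turns on cholesterol export and fatty acid synthesis, was at 4.95, 4.71, 4.86, 4.86 and 5.01 in WT against 5.05, 5.22, 5.24, 5.33 and 5.32 in sg/sg liver (chr2:91034994-91035053). Nr1h2, or LXRβ, its widely expressed relative, was at 1.1, 1.24, 1.0, 1.12 and 1.16 in WT against 1.48, 1.37, 1.52, 1.49 and 1.55 in sg/sg liver (chr7:40724452-40724511). Neither receptor had overlapping genotypes, though 1 WT array of Nr1h3, the one on slide 2, lay close to the lowest sg/sg array. The change of Nr1h3 was 0.36 (SE 0.09, 1.28-fold, limma adjusted p = 0.0251), with 0.16 within slide 2. The change of Nr1h2 was 0.36 (SE 0.07, 1.28-fold, limma adjusted p = 0.0158), with 0.29 within slide 2. With median scaling of the arrays neither passed.

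Among the receptors that set the hepatocyte programme, 1 of 3 probes of Hnf4a, a master regulator of liver genes, passed. That probe (chr2:163311219-163311278) was at -0.18, -0.48, -0.31, -0.28 and -0.01 in WT against 0.03, 0.09, 0.07, 0.64 and 0.11 in sg/sg liver. The groups just missed each other, and sg/sg replicate 4 stood above the rest of its group. The change was 0.44 (SE 0.13, 1.36-fold, limma adjusted p = 0.0496), but 0.08 within slide 2, and the other probes were at 0.30 and 0.12 with adjusted p of 0.105 and 0.543. The bile acid receptor Nr1h4 (FXR) was at -0.28 (SE 0.12, limma adjusted p = 0.146) and did not pass. Nor did its induced partner Nr0b2 (SHP), at -0.38 (SE 0.26, limma adjusted p = 0.334), or Nr5a2 (LRH-1), which turns on bile acid synthesis, at -0.04 (SE 0.17, limma adjusted p = 0.891).

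Of the steroid receptors, Esr1, the oestrogen receptor α, gave the larger of the 2 falls. The probe at chr10:5343241-5343300 read -1.41, -1.01, 0.35, -0.65 and -0.45 in WT against -2.02, -1.01, -2.25, -2.01 and -1.99 in sg/sg liver. The WT arrays were widely spread, and sg/sg replicate 2 lay within their range. The change was -1.22 (SE 0.32, 2.34-fold, limma adjusted p = 0.0324), with -1.31 within slide 2. The other Esr1 probe was well above background on 2 WT arrays and 1 sg/sg array and was not tested. Nr3c1, the glucocorticoid receptor, was at -0.18, -0.06, -0.02 and 0.08 on its 4 probes, none of which passed.

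Esrrg, an oestrogen-related receptor that binds no known steroid and drives oxidative metabolism, read -1.64, -1.62, -1.73, -1.52 and -1.37 in WT against -1.29, -1.25, -0.75, -0.94 and -0.75 in sg/sg liver at chr1:187737462-187737521. The genotypes did not overlap, and the highest WT array was again the one on slide 2. The change was 0.58 (SE 0.13, 1.5-fold, limma adjusted p = 0.02), with 0.27 within slide 2. A second Esrrg probe did not pass and had the opposite sign, at -0.47 (SE 0.24, limma adjusted p = 0.204), so the gene's change in liver depends on the probe.

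Rarg, a receptor of all-trans retinoic acid, read -4.35, -4.25, -4.2, -4.03 and -3.86 in WT against -3.78, -3.65, -3.54, -3.62 and -3.56 in sg/sg liver (chr15:102222035-102222094). Thra, the thyroid hormone receptor of heart, brain and fat, read -1.15, -1.16, -1.6, -1.15 and -0.98 in WT against -0.59, -0.94, -0.58, -0.84 and -0.72 in sg/sg liver (chr11:98873367-98873426). All sg/sg arrays of both lay above all WT arrays, in each case with a WT array of slide 2 as the nearest. Rarg changed by 0.5 (SE 0.10, 1.42-fold, limma adjusted p = 0.0158) and Thra by 0.47 (SE 0.12, 1.39-fold, limma adjusted p = 0.0318), with 0.20 and 0.27 within slide 2. The second Thra probe was at 0.24 (SE 0.10, limma adjusted p = 0.138). Thrb, the main thyroid hormone receptor of liver, was at -0.28, -0.27 and -0.08 on its 3 tested probes, none past the threshold.

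Single arrays decided part of these calls. The count of 8 became 3 when WT replicate 3 was left out and 4 for WT replicate 4. It became 5 when sg/sg replicate 1 was left out and 4 for replicate 3 or 5 of that group. Calls over all probes fell as well, from 3601 to 1540 and 1171 without those WT arrays. Without those sg/sg arrays they fell to 2882, 2197 and 2290. The calls of Nr1i2, Nr1h2 and Rarg were kept in each of these 10 fits, and that of Esrrg was lost only without WT replicate 3 (0.54, limma adjusted p = 0.0502). Nr1h3 lost its call without WT replicate 3 or 4 or sg/sg replicate 3 or 5 (adjusted p 0.0501 to 0.0628). Thra lost it without WT replicate 2, 3 or 4 or sg/sg replicate 1, 3 or 5 (0.0537 to 0.0668), and Esr1 without WT replicate 3, 4 or 5 or sg/sg replicate 1, 3, 4 or 5 (0.0518 to 0.0699). Hnf4a was lost in 9 of the 10 fits, all but that without WT replicate 5 (0.0573 to 0.104). Median scaling, which moves the median of all probes from 0.04 to -0.07, gave 2 receptor probes higher and 2 lower, and a split of 865 higher and 2291 lower over all probes in place of 1999 and 1602.

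**Figure D2:**
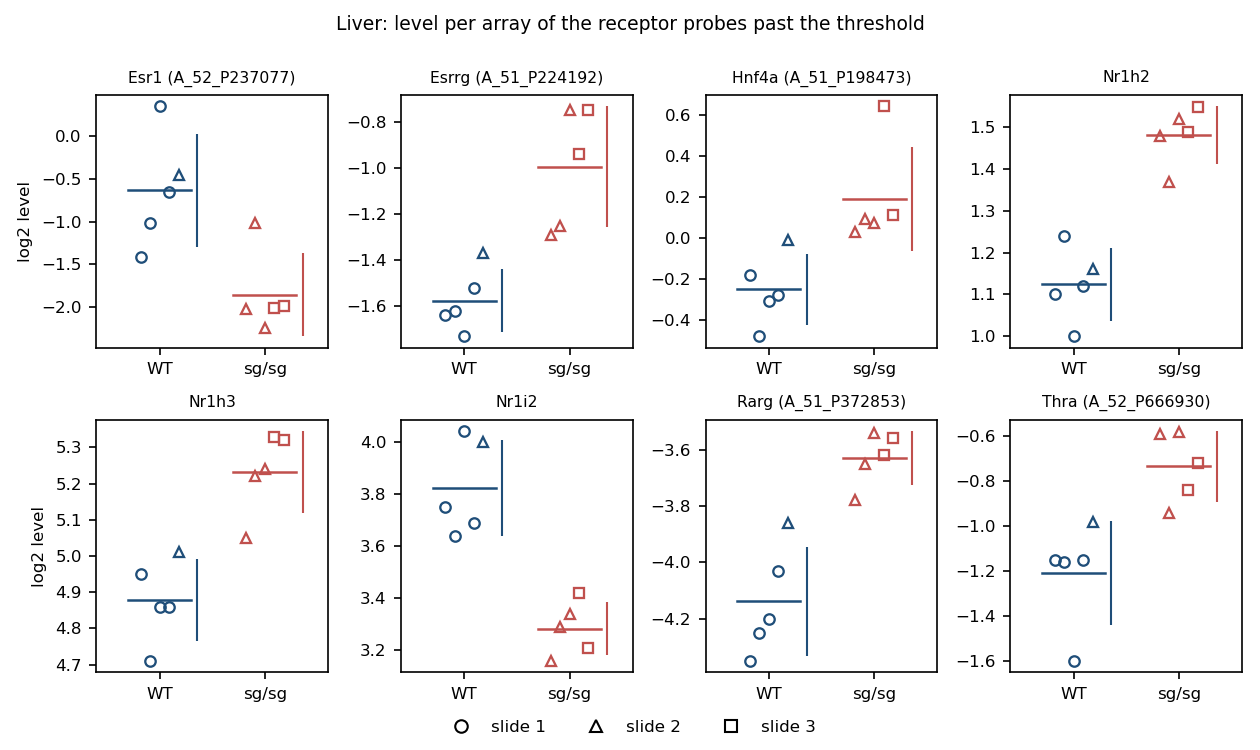
Level of the 8 receptor probes past the threshold in liver (y axis, log2 relative to the 75th percentile of the array) on each of the 5 WT (blue) and 5 sg/sg (red) arrays, with the mean (line) and SD (bar at the side). Symbols mark the slide. The WT array of slide 2 (triangle) is the WT array nearest to the sg/sg group for Esrrg, Hnf4a, Nr1h3, Rarg and Thra, and Nr1i2 is lower on all 5 sg/sg arrays.

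Markers of cell types also differed between the genotypes in liver, where genotype and slide are largely confounded. Over all genes 15.3% were called, and no value within slide 2 is given for the markers. Of 10 fibroblast and stellate cell, 7 T and NK cell, 4 neutrophil and 3 proliferating cell markers, 0 passed. Of the macrophage markers 5 of 13 measured rose and 0 fell, with a summed level of 87.6 to 159 in WT and 146 to 194 in sg/sg liver, and Itgam was well above background on no array of either group and Gpnmb on none of sg/sg. Of the endothelial markers 4 of 10 rose, with summed levels of 14.7 to 19.7 in WT and 20.6 to 23.7 in sg/sg liver. Hepatocyte markers rose on 4 of 13 genes (3000 to 4150 against 4270 to 4950), smooth muscle markers on 2 of 4 (26.7 to 39.5 against 41.6 to 62.2) and exocrine pancreas markers on both measured, of 5 on the array (0.095 to 0.355 against 0.667 to 1.96, with Pnlip and Cpa1 on no array). Adipocyte markers fell on 2 of 7 (23.4 to 67.3 against 19.3 to 22.9, with Plin1 and Lep on no array of either group). Their part in the receptor changes was not tested.

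The known target genes of the receptors were read from written lists, 1 probe per gene, against a background of 15.3% of 17334 genes called in liver. The PXR and CAR list, cytochromes, conjugating enzymes and drug transporters, had 0 of 27 measured genes higher, 2 lower and a median of -0.30 against 0.05 over all genes. The transporter Abcc3, which moves bile acid and bilirubin conjugates into blood, fell by 1.34 on the log2 scale (-1.04 in slide 2 arrays, SE 0.21, 2.54-fold, adjusted p = 0.00762). The bilirubin-conjugating enzyme Ugt1a1 changed by -0.49 (-0.53 in slide 2 arrays, SE 0.11, 1.41-fold, adjusted p = 0.021). Of 18 LXR targets 2 rose and 1 fell, with a median of 0.08. Lipoprotein lipase, Lpl, was at 0.94 (0.76 in slide 2 arrays, SE 0.22, 1.92-fold, adjusted p = 0.0231), the desaturase Scd2 at 0.34 (0.47 in slide 2 arrays, SE 0.09, 1.27-fold, adjusted p = 0.0295) and the phospholipid remodelling enzyme Lpcat3 at -0.45 (-0.54 in slide 2 arrays, SE 0.13, 1.37-fold, adjusted p = 0.0438). Of 13 FXR and SHP targets, 1 rose and 0 fell. It was the bile salt export pump Abcb11, at 0.5 (0.43 in slide 2 arrays, SE 0.13, 1.42-fold, adjusted p = 0.028).

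Of 23 glucocorticoid receptor targets in liver, 3 rose and 1 fell, with a median of 0.06. The kinase Sgk1 was at 0.81 (1.0 in slide 2 arrays, SE 0.09, 1.76-fold, adjusted p = 0.00292), the tyrosine aminotransferase Tat at 0.88 (0.7 in slide 2 arrays, SE 0.16, 1.84-fold, adjusted p = 0.0118) and Tsc22d3 (GILZ) at 0.6 (0.33 in slide 2 arrays, SE 0.15, 1.52-fold, adjusted p = 0.0297). The lipin Lpin1 went the other way, at -1.39 (-0.98 in slide 2 arrays, SE 0.41, 2.61-fold, adjusted p = 0.0475). Of 14 thyroid hormone receptor targets 2 rose and 2 fell. The lipogenic Thrsp was at -2.35 (-3.02 in slide 2 arrays, SE 0.55, 5.11-fold, adjusted p = 0.0233) and the carnitine palmitoyltransferase Cpt1a at -0.51 (-0.62 in slide 2 arrays, SE 0.12, 1.42-fold, adjusted p = 0.0233), whereas Bcl3 was at 0.78 (0.63 in slide 2 arrays, SE 0.12, 1.72-fold, adjusted p = 0.00701). The other gene that rose was the uncoupling protein Ucp1, well above background on 0 WT and 4 sg/sg arrays and at least 1.56-fold higher in sg/sg liver (adjusted p = 0.0196), in the same direction within slide 2. HNF4A targets had 3 of 23 higher and 0 lower, Tat, Ambp at 0.37 (0.06 in slide 2 arrays, SE 0.10, 1.29-fold, adjusted p = 0.035) and F7 at 0.49 (0.2 in slide 2 arrays, SE 0.14, 1.41-fold, adjusted p = 0.0413). ERR targets had 1 higher and 2 lower of 16, Ogdh at 0.46 (0.12 in slide 2 arrays, SE 0.10, 1.37-fold, adjusted p = 0.0177), Sdhb at -0.35 (-0.3 in slide 2 arrays, SE 0.07, 1.28-fold, adjusted p = 0.0158) and Acadm at -0.41 (-0.41 in slide 2 arrays, SE 0.09, 1.32-fold, adjusted p = 0.0197). Retinoid genes had 0 of 19 in either direction, and NR4A targets 0 higher and 1 lower of 12. The oestrogen, progesterone and vitamin D list had 1 higher and 1 lower of 8. The oestrogen-inactivating sulfotransferase Sult1e1 was at 5.22 (4.05 in slide 2 arrays, SE 0.42, 37.2-fold, adjusted p = 0.000596) and the vitamin D responsive calcium binder S100g was well above background on 5 WT and 0 sg/sg arrays, at least 3.5-fold lower in sg/sg liver (adjusted p = 0.0173), also in the same direction within slide 2. Of 21 enzymes and carriers of receptor ligands, 3 rose and 1 fell, among them Cyp39a1, which hydroxylates an oxysterol, at 2.21 (1.53 in slide 2 arrays, SE 0.28, 4.63-fold, adjusted p = 0.00397) and Hsd17b13 at -0.68 (-0.61 in slide 2 arrays, SE 0.14, 1.61-fold, adjusted p = 0.017). Of 25 coactivators and corepressors 0 passed with limma.

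In sg/sg WAT, the receptors that rose were both COUP-TFs, both thyroid hormone receptors, the glucocorticoid and mineralocorticoid receptors, Esr1, Esrra, Esrrb, Rxra, Nr4a2 and Nr6a1, by 1.44 to 2.05-fold apart from Esrrb, whose probe was too dim for a fold. Esrrg, Rara and Vdr fell. Of the 52 tested probes 15 rose, against 12.8% of all probes, and 3 fell, against 9.14%. Genotypes did not overlap on 15 of the 52, against 20.9% of all probes. All 18 changes had the same sign within each of the 3 WAT slides. The genotypes did not overlap except on the probes of Esr1, Nr2f1, Nr6a1, Rara and Vdr and 1 of Thrb. On the others that sign was fixed beforehand. The slides are parts of the same arrays, so the sign is no support. With slide as a fixed block 15 passed, with 6082 of all 32311 probes called in place of 7083. The calls of Rara (limma adjusted p = 0.0589) and of 1 probe each of Nr2f2 (0.066) and Thrb (0.0741) were lost. These counts depend on the background correction. With normexp, 2 receptor probes passed (Esrra and Thrb, 19 at an unadjusted p under 0.05) and the median of all probes moved from 0.08 to 0.49, with 1495 calls in place of 7083.

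The COUP transcription factors Nr2f1 and Nr2f2 are orphan receptors that mostly repress and act in vessel and mesenchyme development. Nr2f2 had 3 probes. One of them (chr7:66209217-66209276) read 1.08, 1.81, 1.67, 1.81 and 1.61 in WT against 2.45, 2.64, 2.66, 2.63 and 2.53 in sg/sg WAT. Even the lowest sg/sg array was above the highest WT array. The change was 0.99 (SE 0.14, 1.98-fold, limma adjusted p = 0.00175), and 1.26, 0.99 and 0.64 within slides 4, 5 and 6. A second probe (chr7:66210289-66210348) changed by 1.04 (SE 0.33, 2.05-fold, limma adjusted p = 0.0459). The remaining probe was at 0.45 (SE 0.18, limma adjusted p = 0.1). Nr2f1, at chr13:75204046-75204105, read -6.22, -4.85, -5.43, -5.06 and -5.27 in WT against -4.29, -5.03, -4.05, -3.71 and -4.56 in sg/sg WAT. Only the lowest sg/sg array, replicate 2, fell within the WT range. Its change was 1.04 (SE 0.30, 2.05-fold, limma adjusted p = 0.0315), and the relative Nr2f6 was at 0.24 (SE 0.11, limma adjusted p = 0.135).

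The glucocorticoid receptor Nr3c1, which binds corticosterone in mice, had 4 probes on chromosome 18. The probe at chr18:39787242-39787301 read 2.5, 2.33, 2.67, 2.83 and 2.75 in WT against 3.14, 3.17, 3.24, 3.1 and 3.05 in sg/sg WAT, so that all sg/sg arrays were above all WT arrays. It changed by 0.52 (SE 0.11, 1.44-fold, limma adjusted p = 0.00871) and a second probe by 0.59 (SE 0.14, 1.5-fold, limma adjusted p = 0.0133). The remaining probes were at 0.36 and 0.38 with adjusted p of 0.452 and 0.218. On these, sg/sg replicate 4 was far below its group, and without it they were at 0.67 and 0.56 (limma adjusted p = 0.0201 and 0.0175). Leaving out an array for its low values on these probes raises the change, so these 2 fits are no support. Nr3c2, the mineralocorticoid receptor, which binds the same hormone and aldosterone, read -8.29, -7.5, -7.96, -7.15 and -7.9 in WT against -6.57, -6.98, -7.15, -6.79 and -7.02 in sg/sg WAT (chr8:75452132-75452191). Its genotypes met at 1 WT and 1 sg/sg array without crossing, and 4 of 5 WT arrays were well above background. The change was 0.86 (SE 0.21, 1.81-fold, limma adjusted p = 0.0163), while another Nr3c2 probe was at 0.07 (SE 0.20, limma adjusted p = 0.835).

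Esr1 read -0.54, -0.57, -0.44, -0.4 and -0.64 in WT against 0.29, 0.01, -0.16, 0.43 and -0.47 in sg/sg WAT. Replicate 5 of the sg/sg mice lay among the WT arrays and the others above them. The change was 0.54 (SE 0.16, 1.45-fold, limma adjusted p = 0.0392), opposite in sign to that in liver, and the second probe was at 0.34 (SE 0.18, limma adjusted p = 0.202).

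Both thyroid hormone receptors, which raise energy use and lipid turnover when thyroid hormone binds, rose. Thra (chr11:98874081-98874140) read 2.81, 2.66, 2.98, 3.25 and 3.12 in WT against 3.6, 3.46, 3.59, 3.74 and 3.41 in sg/sg WAT, without overlap. The change was 0.6 (SE 0.13, 1.52-fold, limma adjusted p = 0.00922), and the second probe was at 0.49 (SE 0.18, limma adjusted p = 0.0743). On that probe replicate 4 was the lowest sg/sg array, and the fit without it (0.63, limma adjusted p = 0.00832) is no support. Thrb (chr14:15850713-15850772) read -1.12, -1.41, -1.08, -0.77 and -0.97 in WT against -0.45, -0.29, -0.23, 0.91 and -0.49 in sg/sg WAT. Replicate 4 stood far above the other sg/sg arrays. The groups did not overlap, and leaving out the highest sg/sg array could not alter that. The change was 0.96 (SE 0.26, 1.95-fold, limma adjusted p = 0.0243), and 0.71 (adjusted p = 0.00452) without that array. The Thrb probe at chr14:15851345-15851404 changed by 0.66 (SE 0.19, 1.58-fold, limma adjusted p = 0.0327) and another was at 0.34 (SE 0.11, limma adjusted p = 0.0568).

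The 3 oestrogen-related receptors, which govern mitochondrial genes, did not move together. Esrra (chr19:6736544-6736603) read -1.81, -1.75, -1.53, -1.87 and -1.78 in WT against -1.01, -1.0, -0.93, -0.89 and -1.32 in sg/sg WAT, with all sg/sg arrays higher. Its change was 0.72 (SE 0.11, 1.64-fold, limma adjusted p = 0.00225), and its second probe was at 0.37 (SE 0.22, limma adjusted p = 0.273). Esrrb, best known from stem cells, read -9.04, -9.01, -7.7, -8.5 and -7.72 in WT against -7.42, -6.45, -6.69, -4.9 and -5.76 in sg/sg WAT (chr12:84523822-84523881). This probe was dim, with 2 WT and 4 sg/sg arrays well above background, and the sg/sg arrays were spread widely above the WT arrays. The change was 2.15 (SE 0.47, limma adjusted p = 0.00985), with no fold given since the WT mean of -8.40 lay below the floor of -8.32 to -8.08. With quantile normalization it was not called, and the other Esrrb probe was at 0.13 (SE 0.21, limma adjusted p = 0.699).

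Esrrg fell in WAT, whereas the same probe had risen in liver. It read -1.87, -1.4, -2.31, -2.2 and -1.97 in WT against -2.5, -2.7, -2.84, -3.45 and -2.59 in sg/sg WAT, and all sg/sg arrays were lower. The change was -0.87 (SE 0.22, 1.82-fold, limma adjusted p = 0.0183), and -0.71 (adjusted p = 0.0172) without sg/sg replicate 4, the lowest array. The second Esrrg probe was at -0.42 (SE 0.37, limma adjusted p = 0.458).

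Of the RXRs, the shared partners of the thyroid hormone, retinoid, vitamin D, oxysterol and bile acid receptors, Rxra passed on 1 of 2 probes. That probe (chr2:27767107-27767166) read -1.51, -2.11, -1.29, -1.4 and -1.41 in WT against -0.86, -0.79, -0.91, -1.11 and -0.87 in sg/sg WAT. All sg/sg arrays were higher, and WT replicate 2 was far below its group. The change was 0.63 (SE 0.15, 1.55-fold, limma adjusted p = 0.0167), and the second probe was at 0.39 (SE 0.17, limma adjusted p = 0.132). Rxrb was at -0.14 and 0.12 on its probes and Rxrg, the form of muscle and fat, at 0.47 (SE 0.16, limma adjusted p = 0.0637).

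Vdr fell, and of the 3 retinoic acid receptors only Rara did. Vdr, the vitamin D receptor, read -1.86, -2.14, -2.44, -2.27 and -1.79 in WT against -3.41, -2.28, -2.79, -3.08 and -2.76 in sg/sg WAT (chr15:97858813-97858872). Only sg/sg replicate 2 reached the WT range. The change was -0.76 (SE 0.21, 1.7-fold, limma adjusted p = 0.0271). Rara, a retinoic acid receptor of most tissues, read -4.8, -4.37, -4.87, -4.64 and -4.5 in WT against -4.82, -4.99, -5.46, -5.75 and -5.17 in sg/sg WAT (chr11:99079584-99079643), and 1 sg/sg array lay within the WT range. Its change was -0.6 (SE 0.18, 1.52-fold, limma adjusted p = 0.0394), but it turned to 0.73 (adjusted p = 0.36) with normexp and lost its call with slide as a fixed block (adjusted p = 0.0589). Rarb was at -0.01 and 0.13 and Rarg at 0.20 and 0.27, none past the threshold.

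Nr4a2 (Nurr1), an immediate early gene that needs no ligand, read -2.52, -2.92, -2.58, -2.34 and -2.72 in WT against -1.85, -2.05, -2.17, -1.99 and -1.93 in sg/sg WAT (chr2:57108976-57109035), with all sg/sg arrays higher. It changed by 0.62 (SE 0.12, 1.53-fold, limma adjusted p = 0.00643), and its relative Nr4a1 (Nur77) was at 0.45 (SE 0.16, limma adjusted p = 0.0743). Nr6a1, the germ cell nuclear factor, an orphan repressor, read -4.04, -3.72, -4.21, -4.18 and -4.29 in WT against -3.38, -3.4, -3.3, -3.45 and -3.75 in sg/sg WAT (chr2:38731179-38731238). Only 1 WT array, replicate 2, reached the lowest sg/sg array. The change was 0.63 (SE 0.13, 1.55-fold, limma adjusted p = 0.00852). Neither oxysterol receptor passed in WAT, with Nr1h3 at 0.2 (SE 0.10, limma adjusted p = 0.168) and Nr1h2 at 0.13 (SE 0.10, limma adjusted p = 0.391).

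Leaving out each array in turn gave between 11 and 24 called probes in WAT. The lowest count, 11, came without WT replicate 1, when calls over all probes fell from 7083 to 5038. Without sg/sg replicate 4, 24 passed, 21 higher and 3 lower, and calls over all probes rose to 10030. All 18 calls were kept and 6 were added, 2 probes each of Nr2c1 and Nr3c1 and 1 each of Thra and Thrb. Since that array was singled out partly by its values on receptor probes, the 6 are not counted as changes. The calls of Esrra, Esrrb, Esrrg, Nr3c1 (both probes), Nr3c2, Nr4a2, Nr6a1, Rxra, Thra and Nr2f2 (A_52_P620399) were kept in all 10 fits. Thrb at chr14:15850713-15850772 lost its call without WT replicate 1 or 2 (adjusted p = 0.0543 and 0.0502). Vdr lost it without WT replicate 1 or 5 or sg/sg replicate 1 or 3 (0.0503 to 0.0659), and Nr2f1 without WT replicate 1, 3 or 5 or sg/sg replicate 1 or 3 (0.0545 to 0.0723). Rara lost it in 6 of 10 fits, those without WT replicate 1, 2, 4 or 5 or sg/sg replicate 3 or 5 (0.0594 to 0.0898). The second Thrb probe lost it in 7, all but those without WT replicate 4 or 5 or sg/sg replicate 4 (0.0516 to 0.0722). The second Nr2f2 probe kept it only without sg/sg replicate 2 or 4 (0.053 to 0.103 otherwise), and Esr1 only without sg/sg replicate 4 or 5 (0.0529 to 0.0868 otherwise).

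**Figure D3:**
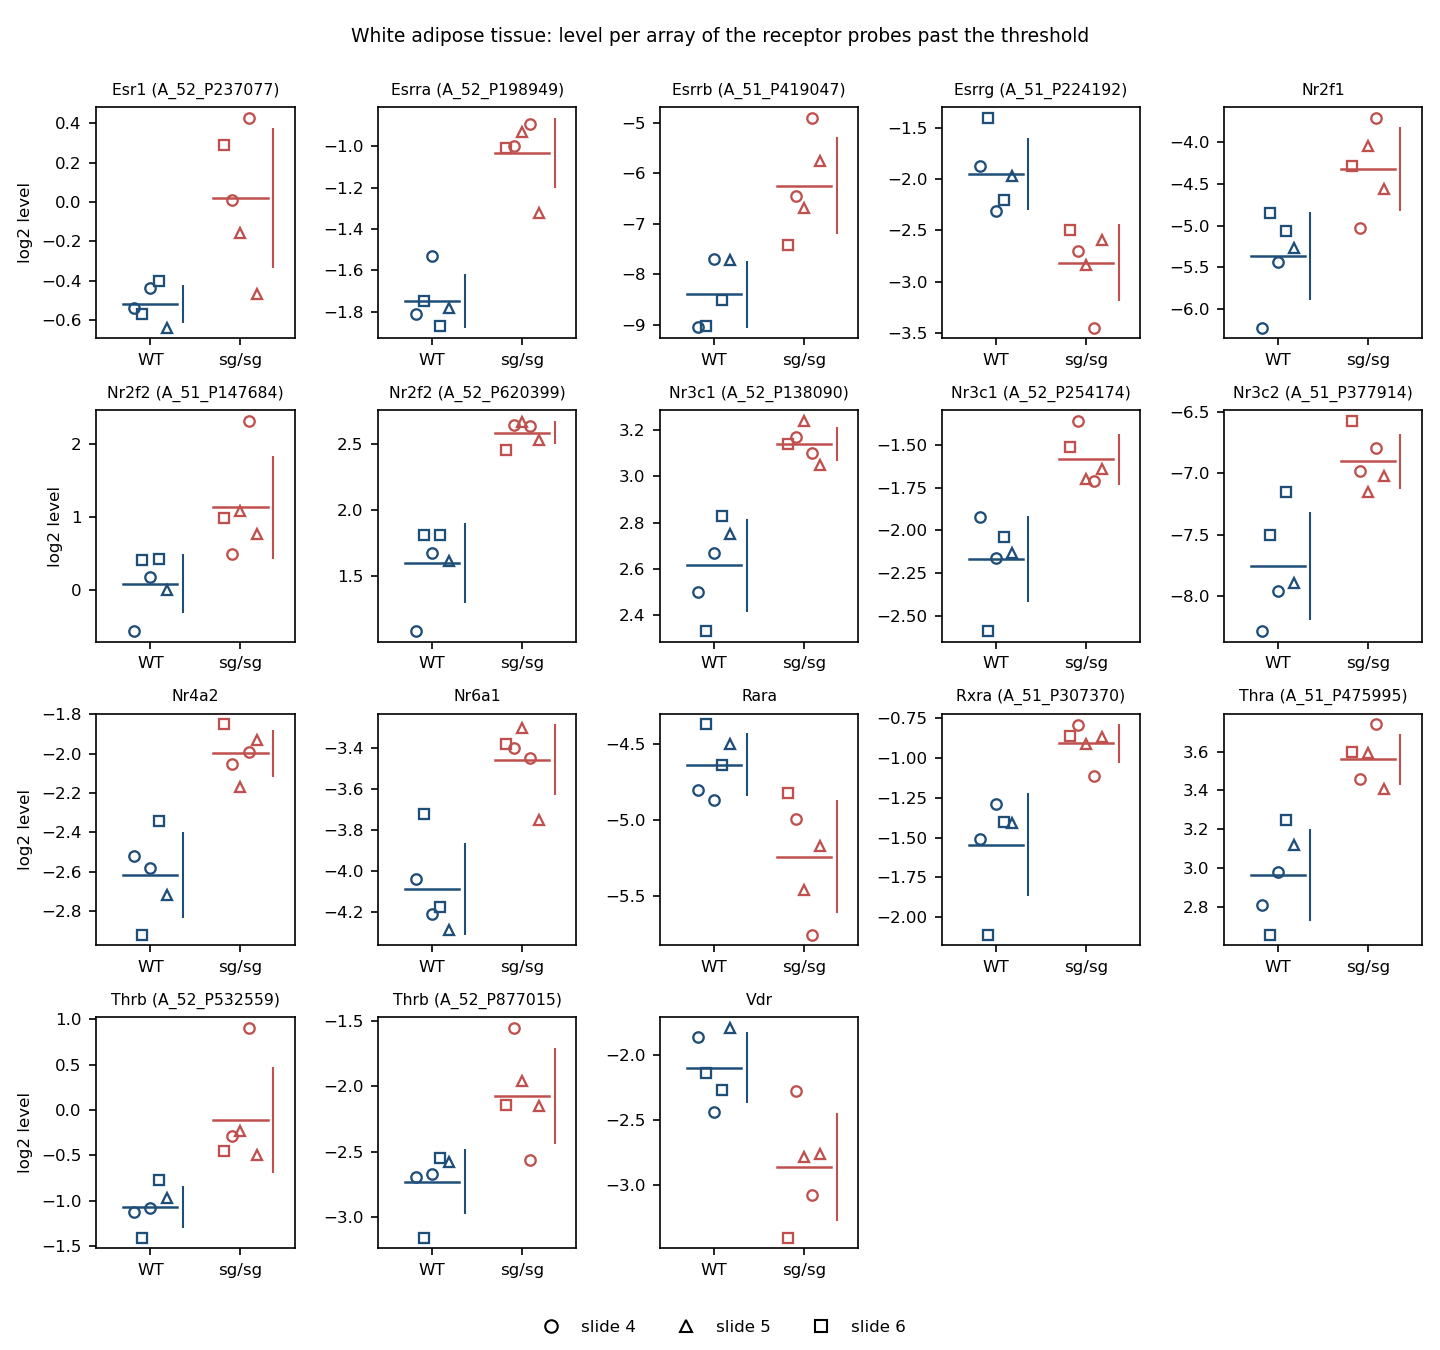
Level of the 18 receptor probes past the threshold in WAT (y axis, log2 relative to the 75th percentile of the array) on each of the 5 WT (blue) and 5 sg/sg (red) arrays, with the mean (line) and SD (bar at the side). Symbols mark the slide. For Esrra, Nr2f2 (A_52_P620399), Nr3c1, Nr4a2, Rxra and Thra all 5 sg/sg arrays are above all 5 WT arrays.

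Promoters of the members were searched for the half-site, to show what surrounds the start sites of receptors that moved together in sg/sg mice. RefSeq windows of build GRCm38.p6, from 250 bases before to 50 bases after the start, were at hand for 32 of 35 members, 51 windows in all. AGGTCA, on either strand, stood in 8 of the 51, and in 5340 of all 32851 windows (16.3%). TNAGGTCA, a longer string that contains AGGTCA, stood in 2 of the 51 and in 1506 of all windows (4.58%). It was searched as letters only and does not stand for the ROR element. The 2 were those of Nr6a1 and Rxra, each in 1 of the 2 windows of its gene. Both shares are near or below those of all windows and are no result about the receptors. Of the 8 genes with AGGTCA, Nr6a1, Rxra and Thrb rose in WAT, Rara fell, and Nr1h4, Nr5a2, Rarg and Rxrg did not pass there. The windows of the 3 that rose are shown. A match is a description of the letters and not a site. In the sequences below, 5′ to 3′ along the gene, capitals mark AGGTCA or TNAGGTCA and their reverse complements. The third, of Thrb, holds AGGTCA and not the longer string.
Nr6a1, chr2:38784466-38784765, minus strand: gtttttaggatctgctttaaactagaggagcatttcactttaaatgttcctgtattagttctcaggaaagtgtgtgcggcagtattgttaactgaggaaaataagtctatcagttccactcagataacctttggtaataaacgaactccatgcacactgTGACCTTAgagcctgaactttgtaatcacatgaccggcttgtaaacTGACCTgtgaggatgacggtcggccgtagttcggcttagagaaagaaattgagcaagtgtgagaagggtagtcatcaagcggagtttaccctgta
Rxra, chr2:27709042-27709341, plus strand: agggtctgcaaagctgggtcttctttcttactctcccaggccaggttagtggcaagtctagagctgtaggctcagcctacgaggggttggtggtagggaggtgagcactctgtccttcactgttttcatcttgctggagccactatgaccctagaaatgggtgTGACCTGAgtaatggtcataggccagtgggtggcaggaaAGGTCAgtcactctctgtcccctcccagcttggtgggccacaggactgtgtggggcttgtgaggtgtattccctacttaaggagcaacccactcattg
Thrb, chr14:17660710-17661009, plus strand: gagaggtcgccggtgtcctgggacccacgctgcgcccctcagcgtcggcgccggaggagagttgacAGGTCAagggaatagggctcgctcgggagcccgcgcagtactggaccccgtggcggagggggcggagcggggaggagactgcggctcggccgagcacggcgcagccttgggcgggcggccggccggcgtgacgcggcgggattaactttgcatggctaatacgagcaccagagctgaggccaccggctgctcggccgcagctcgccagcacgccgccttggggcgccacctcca

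In the Nr6a1 window the longer match began at -91 from the start site and a second AGGTCA lay at -45, both on the opposite strand. In the Rxra window they began at -87 and -48, and in the Thrb window the half-site began at -184. Nr2f1, Nr2f2, Esr1, Esrra, Esrrb, Nr3c2 and Nr4a2, which also rose, had neither motif in any window. For Nr3c1 and Thra, which rose too, no window was at hand. No match says only that these letters are not in the window.

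The cell type markers also moved in WAT, where 23.0% of all genes were called. Of 8 T and NK cell, 6 B cell and 4 skeletal muscle markers, 0 passed. Macrophage markers fell on 10 of 15 measured genes, with a summed level of 234 to 400 in WT and 170 to 227 in sg/sg WAT, and all 5 markers of proliferating cells fell (4.15 to 13.7 against 1.16 to 2.66). Adipocyte markers rose on 6 of 11 genes and fell on 1, with sums of 686 to 1070 and 1160 to 1550. Mesothelial markers rose on 4 of 6 genes (6.72 to 28.9 against 22.5 to 35.7), smooth muscle markers on 3 of 4 (35.2 to 43.8 against 42.8 to 49.0), cholangiocyte markers on 3 of 4 (2.53 to 6.88 against 6.94 to 11.4), and fibroblast markers fell on 4 of 10 (325 to 405 against 271 to 347). Every marker of these lists was well above background on some array of each WAT group. Epididymis and testis markers, with Lcn8 on no array, summed to 0.269 to 19.9 in WT and 0.205 to 0.561 in sg/sg WAT. Their part in the receptor changes was not tested.

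Target genes of the receptors in WAT were read against a background of 23.0% of 22349 genes called. Of 25 coregulators 6 rose and 0 fell, with a median of 0.33 against 0.09 over all genes. They were the acetyltransferase Kat2b at 0.61 (SE 0.13, 1.53-fold, adjusted p = 0.00939), the helicase Ddx5 at 0.34 (SE 0.08, 1.26-fold, adjusted p = 0.0138), the coactivator Ncoa6 at 0.35 (SE 0.09, 1.27-fold, adjusted p = 0.0195), and Lcor, Nrip1 and Sirt1 at 0.42, 0.70 and 0.64. Sirt1 lost its call with slide as a block (adjusted p = 0.0579). Of 14 thyroid hormone receptor targets 4 rose and 1 fell, with a median of 0.37. The mitochondrial glycerophosphate dehydrogenase Gpd2 was at 1.33 (SE 0.20, 2.51-fold, adjusted p = 0.00211) and Thrsp at 1.38 (SE 0.35, 2.61-fold, adjusted p = 0.0193), and Cpt1a fell, at -0.89 (SE 0.16, 1.85-fold, adjusted p = 0.00385). Thrsp thus rose in WAT and fell in liver.

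ERR targets, genes of the respiratory chain and the citric acid cycle, had 5 of 17 higher and 0 lower in WAT, with a median of 0.36. The ATP synthase subunit Atp5b was at 0.37 (SE 0.10, 1.3-fold, adjusted p = 0.027) and Perm1 at 0.6 (SE 0.17, 1.51-fold, adjusted p = 0.0304). NR4A targets had 5 of 18 higher and 1 lower, with the glucose transporter Slc2a4 (GLUT4) at 1.29 (SE 0.29, 2.44-fold, adjusted p = 0.0113), Eno3 at 0.71 (SE 0.14, 1.64-fold, adjusted p = 0.00606) and Ucp2 at -1.43 (SE 0.28, 2.69-fold, adjusted p = 0.00637). Of 22 glucocorticoid receptor targets 3 rose and 2 fell. Hsd11b1, the enzyme that regenerates active glucocorticoid within the cell, was at 1.07 (SE 0.21, 2.11-fold, adjusted p = 0.00566), whereas the metallothionein Mt2 was at -1.04 (SE 0.18, 2.06-fold, adjusted p = 0.00391) and Angptl4 at -0.57 (SE 0.15, 1.48-fold, adjusted p = 0.0222). Hsd11b1 was also the 1 gene that rose among 24 enzymes and carriers of ligands, and the vitamin D 25-hydroxylase Cyp2r1 was the 1 that fell, at -1.1 (SE 0.22, 2.14-fold, adjusted p = 0.007).

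Of 18 LXR targets in WAT 3 rose and 3 fell, with a median of 0.00. Srebf1, the master switch of fatty acid synthesis, was at 0.9 (SE 0.15, 1.86-fold, adjusted p = 0.00344) and the sterol transporter Abcg5 at 1.63 (SE 0.31, 3.09-fold, adjusted p = 0.00583), whereas Arl4c was at -0.71 (SE 0.14, 1.64-fold, adjusted p = 0.00666). CAR and PXR targets had 3 higher and 3 lower of 25, with the cytochrome reductase Por at 0.69 (SE 0.11, 1.61-fold, adjusted p = 0.00236). The 3 that fell, Cyp2b9, Cyp2b10 and Cyp2b13, are near-identical copies that probes may not tell apart. Retinoid genes had 1 higher and 2 lower of 21, with the retinol dehydrogenase Rdh10 at 0.61 (SE 0.09, 1.53-fold, adjusted p = 0.00187), the retinoic acid forming Aldh1a3 at -1.04 (SE 0.18, 2.06-fold, adjusted p = 0.00391) and the carotene-cleaving Bco1 at -1.83 (SE 0.35, 3.57-fold, adjusted p = 0.00547). FXR and SHP targets had 0 higher and 2 lower of 11, the phospholipid transfer protein Pltp at -1.23 (SE 0.28, 2.35-fold, adjusted p = 0.012) and the syndecan Sdc1 at -0.76 (SE 0.21, 1.69-fold, adjusted p = 0.0277). HNF4A targets had 1 higher and 1 lower of 18, G6pc at 0.96 (SE 0.26, 1.94-fold, adjusted p = 0.0245) and F7 at -4.05 (SE 0.42, 16.6-fold, adjusted p = 0.00065). The oestrogen, progesterone and vitamin D list had 0 higher and 2 lower of 12, lactoferrin Ltf at -2.11 (SE 0.49, 4.33-fold, adjusted p = 0.0134) and Fosl1 at -1.47 (SE 0.42, 2.78-fold, adjusted p = 0.0307). Bco1 and Ltf were well above background on 4 of 5 sg/sg arrays. A few genes stand in more than 1 list, and Esrra, Nr0b2, Pgr and Rarb, which are members, were not counted in the lists.

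Whether the effect of the genotype differed between the tissues was tested with the interaction term of a fit to all 20 arrays. It passed on 14 of 45 tested receptor probes of 12 genes (31.1%), 12 with a higher effect in WAT and 2 with a lower one, against 19.9% of all probes (10.5% higher and 9.38% lower). Over all probes 2550 were higher and 2284 lower, and with median scaling 2892 and 1533. Its liver term carries the confounding with slide, so the liver change within slide 2 is given too. Esr1 gave a difference of 1.76 (SE 0.38, 3.39-fold, limma adjusted p = 0.00304), with -1.22 in liver (-1.31 within slide 2) and 0.54 in WAT. Esrrg gave -1.45 (SE 0.26, 2.73-fold, limma adjusted p = 0.000679), with 0.58 in liver (0.27 within slide 2) and -0.87 in WAT. The second Esrrg probe gave 0.04 (SE 0.46, limma adjusted p = 0.956), with -0.47 in liver (-0.75 within slide 2) and -0.42 in WAT. The 2 probes of Thrb gave 1.24 (SE 0.31, 2.35-fold, limma adjusted p = 0.00939) and 0.93 (SE 0.24, 1.91-fold, limma adjusted p = 0.0098), with -0.27 and -0.28 in liver (-0.13 and -0.43 within slide 2). Nr4a2 gave 1.12 (SE 0.30, 2.18-fold, limma adjusted p = 0.0126), with -0.51 in liver and 0.62 in WAT, but the liver change turned to 0.44 within slide 2. Esr1, both Thrb probes and Nr4a2 passed under every alternative that tested them, among them normexp, median and quantile scaling, the other filters, the replicate block, slide as a random block and leaving out each array. No fit with slide as a fixed block was run for this test.

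There were 3 receptors that passed this test though they passed in neither tissue alone. Nr1h4 (FXR) read 5.11, 5.09, 5.3, 5.4 and 5.2 in WT against 4.73, 4.67, 4.92, 5.11 and 5.27 in sg/sg liver (chr10:89013326-89013385). Its WAT level was -2.48, -2.69, -2.53, -3.04 and -2.19 on WT arrays and -2.24, -2.11, -1.63, -2.12 and -2.29 on sg/sg arrays. The sg/sg arrays lay towards the lower end in liver and the upper end in WAT, with overlap in both. The difference was 0.79 (SE 0.22, 1.73-fold, limma adjusted p = 0.0152), and the liver change within slide 2 was -0.42. Rxrg gave 0.84 (SE 0.22, 1.79-fold, limma adjusted p = 0.0128), with -0.37 in liver (-0.52 within slide 2) and 0.47 in WAT. Nr2c1, the testicular receptor TR2, gave 0.46 (SE 0.11, 1.38-fold, limma adjusted p = 0.00808), with -0.22 in liver (-0.05 within slide 2) and 0.24 in WAT. The other calls were those of Esrrb (1.96, on its dim probe), Nr2f2 (0.69), Nr6a1 (0.71), 2 probes of Nr3c1 (0.70 and 0.65) and Rara (-0.95, or 0.46 with normexp). The liver change of Rara was 0.34 and turned to -0.20 within slide 2, while those of the other 5 probes kept their sign there. Esrrb was at 0.19 in liver (0.40 within slide 2) and Nr2f2 at 0.30 (0.12). The Nr3c1 probes were at -0.18 (-0.07) and -0.06 (-0.21), and Nr6a1 at -0.08 (-0.09). The oxysterol receptors, which passed in liver and not in WAT, gave no such call, with Nr1h2 at -0.23 (SE 0.11, limma adjusted p = 0.147) and Nr1h3 at -0.16 (SE 0.12, limma adjusted p = 0.395).

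In WT mice the receptors of bile acid and drug metabolism stood far higher in liver than in WAT, and Vdr, Thra and Rarg stood higher in WAT. Of 54 tested receptor probes 41 passed (75.9%), against 76.3% of all 32631 probes, with 31 lower in WAT and 10 higher, where the shares of all probes were 41.4% and 34.9%. Groups did not overlap on 36 probes, against 65.7% of all probes. Over all probes 11386 were higher in WAT and 13511 lower, but 8131 and 19940 with normexp. Genotype plays no part here, but tissue and slide cannot be told apart. The share near the background is no result about the receptors. On this scale a probe without signal also reads lower in WAT, since its scaled floor lies at -8.32 to -8.08 in WT WAT and -5.89 to -4.82 in WT liver, so the number of arrays well above background is given for dim probes.

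Nr1i3 (CAR), at chr1:171187738-171187797, read 2.89, 2.73, 2.97, 3.13 and 3.32 in WT liver against -10.31, -10.54, -6.75, -9.46 and -8.85 in WT WAT. Only 1 of 5 WT WAT arrays was well above background. It was lower in WAT (limma adjusted p = 2.63e-08), but the size of the difference is not given, since the WAT mean of -9.18 lay below the floor. Nr1i2 (PXR) was lower in WAT too (limma adjusted p = 2.76e-08), with 2 of 5 WAT arrays well above background and again no size. Nr0b2 (SHP), which represses bile acid synthesis, differed by -9.52 (SE 0.15, 737-fold, limma adjusted p = 1.43e-11), Nr1h4 (FXR) by -7.81 (SE 0.15, 224-fold, limma adjusted p = 4.01e-11) and Nr5a2 (LRH-1) by -4.67 (SE 0.19, 25.5-fold, limma adjusted p = 6.44e-09), each well above background on all 5 WAT arrays. The WAT mean of Nr0b2, -7.74, lay close above the floor, and its difference ranged from -9.7 to -6.76 over the alternatives. Hnf4a was lower in WAT on all 3 probes, by -9.79 and -5.21 on 2 of them, and on the third with 1 of 5 WAT arrays well above background and no size given.

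Vdr had the opposite pattern. It read -7.18, -7.13, -7.84, -7.56 and -7.13 in WT liver, where it was well above background on no array, and -1.86, -2.14, -2.44, -2.27 and -1.79 in WT WAT, where it was on all 5. It was at least 9.91-fold higher in WAT (adjusted p = 1.49e-09), taking the lowest signal well above background on each liver array as the floor. Thra was higher in WAT on both probes, by 1.48 (SE 0.14, 2.8-fold, limma adjusted p = 2.5e-06) and 1.96 (SE 0.14, 3.89-fold, limma adjusted p = 3.59e-07), whereas Thrb was lower on its 3 tested probes, by -1.90 to -1.97. Rarg was higher in WAT by 1.2 (SE 0.13, 2.3-fold, limma adjusted p = 7.37e-06) on 1 probe. Its other probe, and that of Nr2f1, were well above background on no WT liver array and on all WT WAT arrays, at least 1.95-fold and 1.03-fold higher in WAT, but with normexp they turned to -0.22 and -0.53. A second Esrrb probe was well above background on no WT liver array and on 4 WAT arrays, with no difference past the threshold (-0.35, adjusted p = 0.194). Nr1h2, Nr4a1, Nr4a2 and Nr2c2 were also higher in WAT, by 0.35, 0.56, 0.85 and 0.59. Nr4a1 lost its call in 6 of 19 alternatives, median scaling among them. Nr1h2 lost it with median scaling and Nr4a2 with quantile normalization. The Nr2c2 difference, on 1 of 2 probes, was 0.00 with normexp and was not called with median or quantile scaling.

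**Figure D4:**
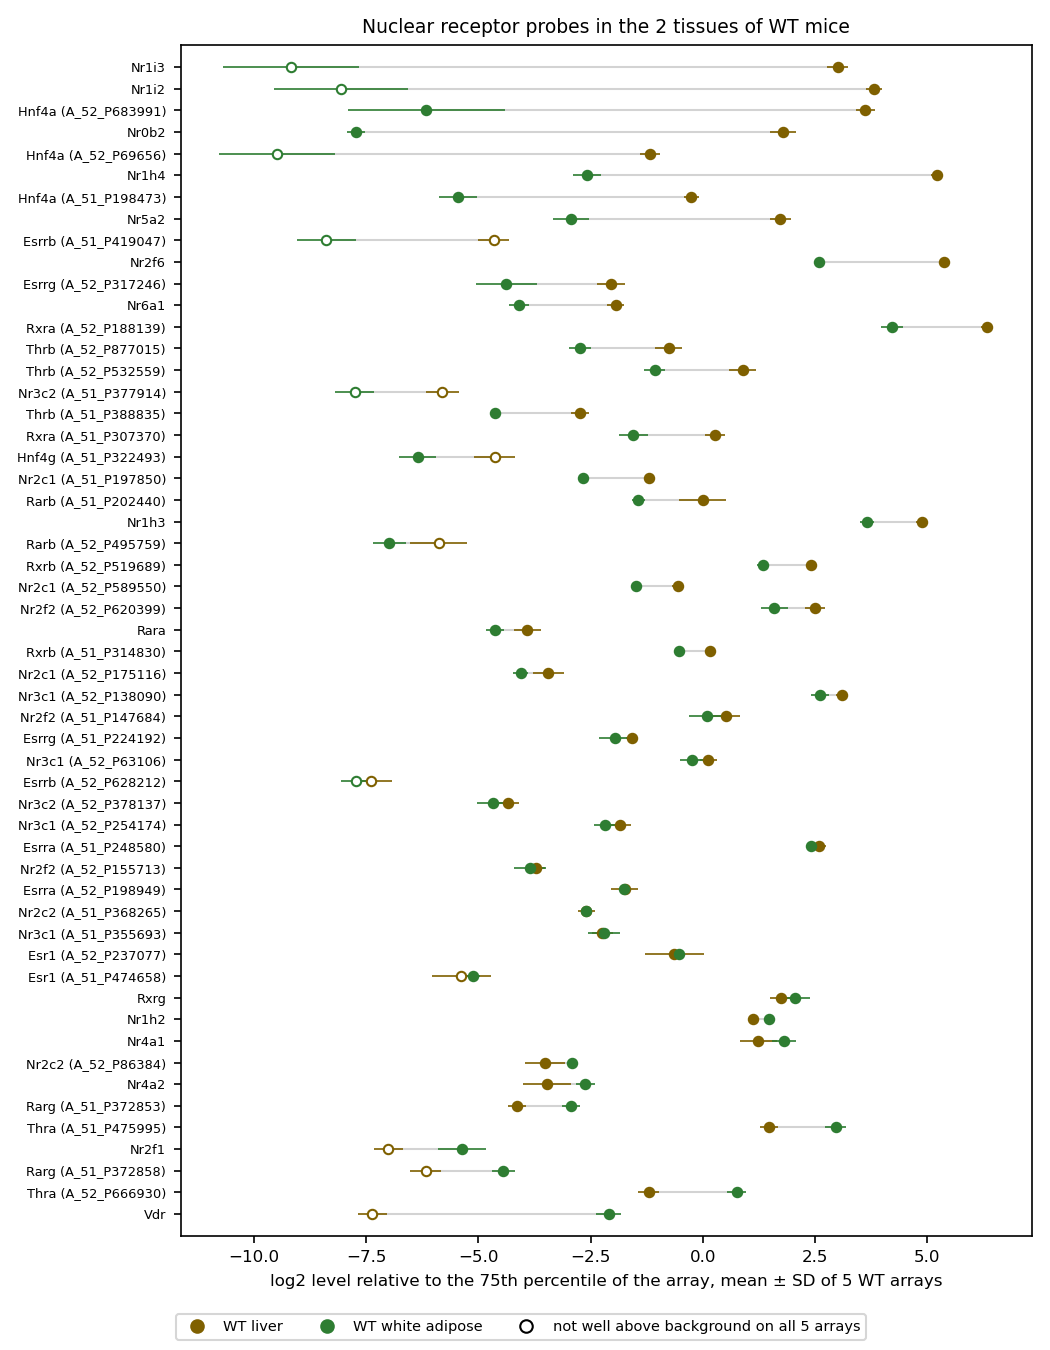
Mean level (x axis, log2 relative to the 75th percentile of the array, with SD) of each tested receptor probe on the 5 WT liver arrays (brown) and 5 WT WAT arrays (green), ordered by the difference. Open points were not well above background on all 5 arrays of the group. Nr1i3 and Nr1i2 lie at one end, at 3.01 and 3.82 in liver with open points in WAT whose position is not a measured level, and Vdr lies at the other end, with an open point in liver and -2.10 in WAT.

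The rest of the family was at or near background or passed no test of genotype. Of 63 probes, 9 were tested in no comparison, all those of Nr4a3 (1), Pgr (2) and Rorb (3) and 1 each of Hnf4g, Nr3c2 and Thrb. Rorb was well above background on 1 of 20 arrays, a WT WAT array, and there on 1 of its 3 probes, so no level of Rorb is given. Hnf4g, a relative of Hnf4a, was at -0.7 (SE 0.58, limma adjusted p = 0.431) in liver and 0.27 (SE 0.22, limma adjusted p = 0.418) in WAT. Nr2f6, Nr5a2, Rarb, Rxrb, Nr2c2, Nr4a1, Nr0b2, Nr1i3 and Hnf4g passed no test of genotype. Nr4a1, an immediate early gene, varied widely in liver, between 0.75 and 1.69 for WT and between 1.02 and 2.39 for sg/sg mice, with a difference of 0.41 (SE 0.29, limma adjusted p = 0.354).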

How the data were processed

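RNA of 20 samples was hybridised to 1-colour Agilent mouse arrays, 5 per group. The deposited values are processed signal intensity per spot, background-subtracted by the authors' scanner software (Agilent Feature Extraction 9.5, per the file headers), and the deposited series table holds the same intensity (largest relative difference 0). The medians of its columns lay between 55.5 and 65.6 for WT livers and between 42.5 and 64.9 for those of sg/sg mice. For WAT they lay between 130.9 and 220.8 (WT) and between 88.8 and 156.4 (sg/sg). Control spots were left out of 45018, leaving 43379 spots of 41174 probes. Log2 was taken per spot and the 75th percentile of the spots of each array was subtracted. Spots flagged as outliers were left out, and the spots of 1 probe were then averaged.

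A probe was tested in a tissue where at least 4 of the 10 arrays were well above background and at most 2 were missing. Tests were limma 3.58.1 (R 4.3.3) with Benjamini-Hochberg adjustment over all probes tested and a threshold of 0.05, checked on simulated data. Liver and WAT were fitted separately, the WT tissues in a fit of their own, and the difference of genotype effects over all 20 arrays. The spread between arrays limits the precision. Nothing in the labels says how the mice of the 2 tissues relate, and where samples of a group shared an animal or an extract, p-values would measure technical spread.

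The members and the lists of targets and markers were chosen with earlier results of these data known. Probes past the threshold were named in the genotype tests of both tissues and in the difference between tissues. Between WT tissues those higher in WAT were named, and of those lower in WAT only a part. From each target list up to 3 genes of smallest p were named, and Lpin1 and Thrsp in liver and Lcor, Nrip1, Sirt1 and Cyp2b9 in WAT were added after their values were seen. Some genes of these lists are not reported here. Probe coordinates are those of the files (mm7). No annotation of mm7 was used, so exon or UTR is not stated. Alternatives were normexp (offset 50), median and quantile scaling, other filters, slide and replicate blocks, pooled fits and leaving out each array.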

Additional observations from a re-analysis of the deposited data

Results flagged for a closer look

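Single arrays stood apart from the other 4 of their group on 23 of the 198 receptor probe and group combinations examined. Chance gives about 1 in 20, or 9.90 here. In WAT, sg/sg replicate 4 accounted for 8 of the 23. It was high for Esrra (A_51_P248580, 3.73), Nr2f6 (3.19), Rxra (A_52_P188139, 5.14) and Thrb (A_52_P532559, 0.91), and low for Nr2c1 (A_51_P197850, -2.86), Nr3c1 (A_51_P355693, -3.06, and A_52_P63106, -0.56) and Rxrb (A_51_P314830, -1.83). WT replicate 2 of WAT was low for Esr1 (A_51_P474658, -5.41), Nr3c1 (A_52_P63106, -0.72), Rxra (A_51_P307370, -2.11) and Thrb (A_52_P877015, -3.16). In liver, sg/sg replicate 4 stood apart for Hnf4a (A_51_P198473, 0.64), Nr2c1 (A_51_P197850, -0.85), Nr2f2 (A_51_P147684, 0.03) and Nr5a2 (1.08).

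The remaining arrays were scattered. In sg/sg WAT, replicate 1 stood apart for Hnf4a (A_51_P198473, -5.00) and Nr0b2 (-5.28), replicate 3 for Nr1h4 (-1.63) and replicate 5 for Esrra (A_52_P198949, -1.32). WT WAT replicate 1 stood apart for Nr2f2 (A_52_P620399, 1.08), WT liver replicate 2 for Nr3c1 (A_52_P254174, -2.25) and sg/sg liver replicate 2 for Esr1 (A_52_P237077, -1.01).

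The genotype effect differed between WAT and liver, by the interaction term in limma, on 14 probes. The difference of log2 changes was 1.76 for Esr1, 1.96 for Esrrb, 0.79 for Nr1h4, 0.46 for Nr2c1, 0.69 for Nr2f2, 0.70 and 0.65 for Nr3c1, 1.12 for Nr4a2, 0.71 for Nr6a1, 0.84 for Rxrg and 1.24 and 0.93 for Thrb. It was -1.45 for Esrrg and -0.95 for Rara.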

How the results depend on the processing

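The count of 8 receptor probes called in liver became 4 with median scaling, 3 with no filter on dim probes and 0 with slide as a fixed block. Calls over all probes went from 3601 to 3156, 1245 and 3 in these fits. The receptor count ranged from 3 to 8 when each array was left out, and that of all probes from 1171 to 4112. The count of 18 in WAT became 2 with normexp, where calls over all probes fell from 7083 to 1495. On the arrays of slide 4 alone it was 0 (9 at an unadjusted p under 0.05), with 0 called over all probes. It ranged from 11 to 24 when each array was left out, and that of all probes from 5038 to 10030. The 14 differences between tissues became 7 with normexp, where those over all probes fell from 4834 to 2705, and 14 to 16 when each array was left out. The 41 differences between WT tissues became 26 of 32 with 1 probe per gene, against 17390 of all 22555 probes kept. They were 39 to 43 when each array was left out.

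With normexp, Rara turned to 0.73 in WAT and 0.46 in the difference between tissues, and the WT tissue difference turned to -0.22 for Rarg (A_51_P372858), -0.73 for Esr1 (A_51_P474658), -0.53 for Nr2f1 and 0.00 for Nr2c2 (A_52_P86384). With quantile normalization it turned to 0.26 for Esrra (A_51_P248580) and 0.03 for Nr3c1 (A_52_P138090). The cause was not tested. The median of all probes between WT tissues was -0.13, and -0.60, -0.30 and 0.08 with normexp, median and quantile scaling. That of the difference between tissues moved from 0.03 to 0.14 with median scaling and 0.23 with normexp.

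Whether replicate numbers pair samples of 1 mouse cannot be decided from these values. Deviations of same-numbered samples correlated at -0.11 to 0.17 within liver (other numbers -0.12 to 0.21) and -0.19 to 0.14 within WAT (-0.17 to 0.24). Between the tissues they correlated at -0.04 to 0.17 in WT (other numbers -0.08 to 0.10) and -0.10 to 0.10 in sg/sg mice (-0.11 to 0.20). A sample correlated best with its own number in at most 2 of 5 cases. With a replicate block, the counts were 3 in liver, 10 in WAT, 14 in the difference between tissues and 42 between WT tissues. Over all probes they were 1658, 4491, 4024 and 24361.

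Dim probes (Esrrb and Nr3c2 in WAT, Nr2f1 in liver) rest on signals near background, and liver genotype on slides that hold mostly 1 genotype each.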
